A study of Mus musculus with 48 samples.

Results

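Internal fragments of transfer RNAs (tRNAs) were followed in 2 mouse ganglia, leaving out those cut from asparagine (Asn) and aspartate (Asp) tRNAs. A tRNA fragment (tRF) entered the set if the deposited annotation typed it as internal, if its listed locations were not all Asn or all Asp, and if it had at least 10 counts in at least 12 of the 48 libraries. The set held 147 of the 13007 tRFs counted. Annotation alone left 8812 of 9542 internal tRFs, after 222 wholly Asn and 508 wholly Asp fragments were set aside, so the measured counts made the last choice. The members just inside that limit were 6 tRFs with exactly 12 such libraries and 300 to 362 counts in all, and 4 tRFs with 11 such libraries and 287 to 353 counts stayed outside.

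The libraries were short RNA libraries from Balb/c mice of 2.5 months, 24 of either sex. Each mouse had received 1 intraperitoneal injection of 0.2 mL saline with or without lipopolysaccharide (LPS), the endotoxin of the E. coli outer membrane, at 2.5 mg/kg. Both trigeminal ganglia (TG) of a mouse gave 1 RNA sample, and both superior cervical ganglia (SCG) of a mouse gave 1 RNA sample. The 12 groups held 4 libraries each, 2 from females and 2 from males. They were TG after LPS and after saline at 4 h, 24 h and 7 d, and SCG after LPS and after saline at the same times. All mice were of this one strain and no allele differs between the groups. TG and SCG libraries of 1 mouse could not be matched from the labels. With 48 mice and 48 libraries, the labels do not show which mice gave a TG library, an SCG library or both.

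The trigeminal ganglion holds the cell bodies of sensory neurons of the face and head, and the superior cervical ganglion holds sympathetic neurons. tRNAs are folded into an acceptor stem, a D arm, an anticodon arm and a T arm, and nucleases cut them into shorter RNAs. Angiogenin, a ribonuclease activated in stressed cells, cuts in the anticodon loop and gives longer pieces, each keeping an original end. Internal fragments lack both ends of the mature tRNA and so need a cut on either side. MINTbase, the catalogue that names these fragments, writes the length and a code for the sequence into each name. The 3 letters after an amino acid are the anticodon of the parent tRNA.

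Members held 171709 of 12563678 tRF counts (1.367%) and 55.82% of the 307638 counts of internal fragments. They were 16 to 49 bases long (median 23), with a GC content of 42.9% to 77.8% (median 57.9%). The most abundant member held 5.11% of the member counts, the first 10 held 29.95% and the first 30 held 57.88%. Only 19 members had at least 10 counts in all 48 libraries, and 62 had them in 12 to 23 libraries.

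Positions along the tRNA and parents are those of the deposited annotation, which places each fragment in human tRNA space. No mouse genome position is given for that reason. Start positions fell into 3 stretches. In the first, bases 2 to 5, close to the 5′ end, 37 members held 26.63% of the member counts. In the second, bases 8 to 21, in and around the D arm, 70 members held 52.3%, and 32 of them began at base 16. In the third, base 29 or later, in the anticodon arm or beyond, 40 members held 21.07%. Letter for letter, 105 members lay within a longer 5′ fragment of the same table, 35 lay within a 3′ fragment, and 9 lay in neither kind. Members were not independent of each other in sequence: 135 were nested in or held another member, and the largest family that shared 16 bases had 41 members.

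**Figure D1:**
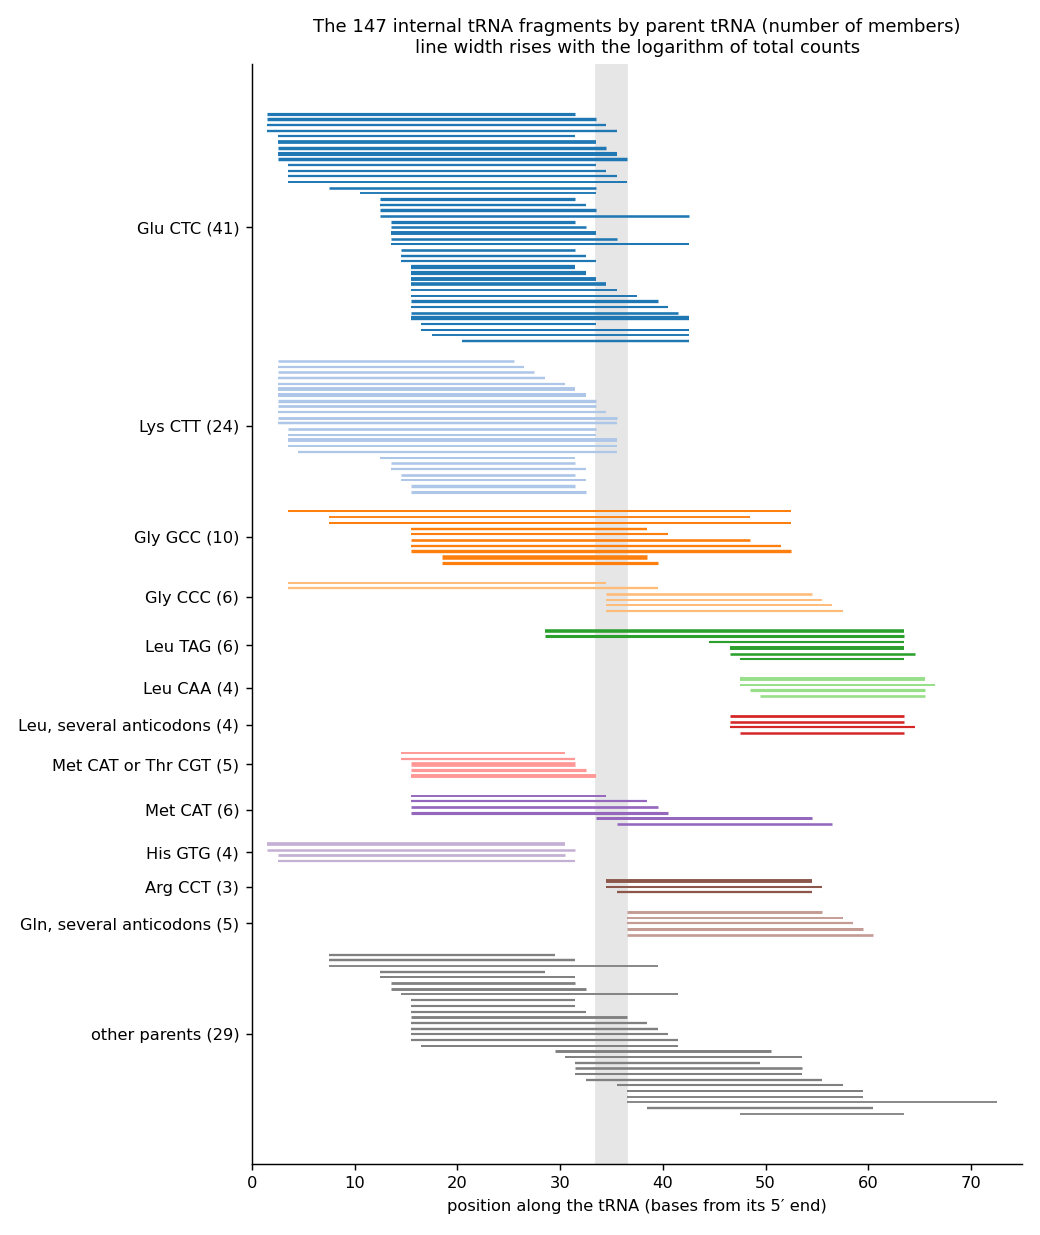
Position of each of the 147 members along its parent tRNA, in bases from the 5′ end, one line per member, grouped by parent with the number of members in brackets; line width rises with the logarithm of the total counts and the grey band marks positions 34 to 36. Glu CTC and Lys CTT members begin near the 5′ end or in the D arm and mostly stop by the band, while Leu members begin at or past base 29.

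Glutamate tRNA with anticodon CTC gave 41 members and 35.37% of the member counts, and lysine tRNA with anticodon CTT gave 24 members and 16.05%. Next came 5 members shared by methionine CAT and threonine CGT tRNAs (8.52%), 10 of glycine GCC (8.28%), 6 of leucine TAG (5.17%) and 4 of leucine CAA (3.65%). The other parents held under 3% each. How much of a parent's fragments were members differed widely. Members were 0.7% of the 8681075 counts annotated to Glu CTC, 4.92% for Lys CTT and 0.292% for histidine GTG, for which fragments of other types were far more abundant. They were 70.8% for arginine CCT, 61.6% for Leu CAA, 56.9% for Leu TAG and 32.8% for Met CAT.

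The sequences that the results below turn on are printed 5′ to 3′ as the deposited annotation gives them. The Glu CTC and Lys CTT members are shown because they differ mainly in where they stop. Capitals mark the bases from position 33 of the tRNA on, which is the base before the anticodon, and the 12 Glu CTC members that cover positions 34 to 36 spell CTC there. The 3 Glu CTC fragments begin at base 16. All but the last of the Lys CTT fragments begin at bases 3 or 4, and that one begins at base 14.
tRF-16-9N1EWJ0 (Glu CTC, 16 to 31): tggttaggattcggcg
tRF-17-9N1EWJM (Glu CTC, 16 to 32): tggttaggattcggcgc
tRF-27-9N1EWJQ72SJ (Glu CTC, 16 to 42): tggttaggattcggcgcTCTCACCGCC
tRF-24-3JVIJMRPEU (Lys CTT, 3 to 26): ccggctagctcagtcggtagagca
tRF-30-3JVIJMRPFQ5D (Lys CTT, 3 to 32): ccggctagctcagtcggtagagcatgagac
tRF-31-3JVIJMRPFQ5DE (Lys CTT, 3 to 33): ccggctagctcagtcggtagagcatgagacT
tRF-33-3JVIJMRPFQRD03 (Lys CTT, 3 to 35): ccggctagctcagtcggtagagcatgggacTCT
tRF-32-MIF91SS2P4FI3 (Lys CTT, 4 to 35): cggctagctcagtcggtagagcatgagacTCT
tRF-18-1SS2P4DX (Lys CTT, 14 to 31): agtcggtagagcatggga

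The next fragments are shown for their common end. All 14 leucine members, all 3 arginine members and 1 of the 2 serine members hold GTGGGT, in capitals here, as their last bases or followed by at most 1 more T. No other member holds it. The letters were searched on the strand as printed, and they occur in 18 of 147 members and in 695 of all 9542 internal tRFs of the table (7.284%).
tRF-17-I958M8N (Leu TAG, 47 to 63): atttcgatggcGTGGGT
tRF-35-9EYK46SQYU9H93 (Leu TAG, 29 to 63): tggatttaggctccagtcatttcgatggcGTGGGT
tRF-18-W9RKM80E (Leu, several anticodons, 47 to 64): tcttcgggggcGTGGGTt
tRF-17-W9RKM8N (Leu, several anticodons, 47 to 63): tcttcgggggcGTGGGT
tRF-18-3L90Q4DZ (Leu CAA, 48 to 65): ccgtatggaggcGTGGGT
tRF-20-40KK5Y93 (Arg CCT, 35 to 54): ctaagccagggattGTGGGT
tRF-16-NY2V7KE (Ser GCT, 48 to 63): ctttgcacgcGTGGGT

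The remaining sequences are the most abundant members and those with the widest gap between the ganglia. The 16 bases shared by 3 methionine fragments are in capitals, as are the bases that longer Gly CCC fragments add to the shortest, and the anticodon letters of a Gln CTG fragment that varied most between libraries.
tRF-16-MBQ4NKD (Met CAT or Thr CGT, 16 to 31): CGGAAGCGTGCTGGGC
tRF-18-MBQ4NKDJ (Met CAT or Thr CGT, 16 to 33): CGGAAGCGTGCTGGGCcc
tRF-25-MBQ4NKKQBR (Met CAT, 16 to 40): CGGAAGCGTGCTGGGCccataaccc
tRF-20-VBY9PYKH (Gly GCC, 19 to 38): tagaattctcgcctgccacg
tRF-20-J9ZH0SR9 (Gly CCC, 35 to 54): cattcttgcgacccgggttc
tRF-21-J9ZH0SR90 (Gly CCC, 35 to 55): cattcttgcgacccgggttcG
tRF-23-J9ZH0SR9D7 (Gly CCC, 35 to 57): cattcttgcgacccgggttcGAT
tRF-23-DRFU8U767 (Gln, several anticodons, 37 to 59): aatccagcgatccgagttcaaat
tRF-21-O9XEKJ5R0 (Gln CTG, 30 to 50): gactCTGaatccagcgatccg
tRF-22-UMJYX9X5M (Ser GCT, 36 to 57): taatccattgtgctctgcacgc
tRF-23-Y2PPEVNK0Q (suppressor TTA, 33 to 55): ttagagccagactgcctgggttt

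Library totals of tRF counts ran from 61218 to 1511191 (median 204269), and member counts from 1680 to 8540 per library (median 3276). Between 50 and 133 members per library reached 10 counts, so many single members rest on few reads and the spread between mice sets their precision. Levels are counts per 1e6 reads (CPM), scaled by edgeR's TMM factors from the whole tRF table. Within a group the log2 level of a member had a median SD of 0.639, which was 0.396 for the 19 members seen in every library and 0.722 for those seen in 12 to 23. Sensory neuron miRNAs went with the tissue labels. The summed level of the miR-183 cluster of sensory neurons (3 of 3 miRNAs found) was 57040 to 88280 CPM in TG and 220.9 to 21080 CPM in SCG, with the highest SCG value in saline replicate 1 at 24 h. SCG after LPS at 7 d, replicate 2, stood apart in muscle, epithelium and leukocyte miRNAs. It also had the highest SCG sum of 3 neuron miRNAs (miR-124-3p, miR-9-5p and miR-128-3p), 35890 CPM, of which miR-128-3p gave 35650 CPM. So miR-9-5p, with an SCG median of 8250 CPM, gave little of it. The myelinating glia sum of this library was the lowest in SCG, 38.42 CPM beside a median of 512 CPM. SCG after saline at 4 h, replicate 1, held the highest SCG sums of muscle (94290 CPM) and epithelium miRNAs (11460 CPM). Fewer cells of a type and less RNA per cell cannot be told apart in these bulk samples.

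Summed over all members, the level was 14780 to 22060 CPM in TG (median 18790) and 11920 to 18750 CPM in SCG (median 14570), with overlap. Per 1e6 miRNA counts the members had a median of 898.6 in TG and 918.8 in SCG, and as a share of tRF counts they were 2.46% in TG and 1.13% in SCG. The makeup of the set also differed. Fragments that began at bases 8 to 21 made up a median of 44.81% of the member counts in TG (33.09% to 58.98%) and 58.72% in SCG (46.23% to 67.92%). Those that began at bases 2 to 5 made up 28.27% in TG and 20.62% in SCG, and those that began at base 29 or later 23.86% in TG and 18.45% in SCG. The count rule enters the sum and these shares, since a member could qualify through 1 ganglion. Members with 10 counts in at least 6 libraries of each ganglion were 60 of 70 that began at bases 8 to 21. They were 28 of 37 at bases 2 to 5 and 23 of 40 at base 29 or later.

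Over the 12 groups, the Glu CTC sum had group medians of 5827 CPM after LPS and 6260 CPM after saline at 4 h in TG, 5825 and 6051 CPM at 24 h, and 6793 and 5534 CPM at 7 d. In SCG these medians were 5791 CPM after LPS and 5442 CPM after saline at 4 h, 4386 and 5761 CPM at 24 h, and 5092 and 5119 CPM at 7 d. The group medians thus lay between 4386 and 6793 CPM. Lys CTT sums had higher group medians in TG than in SCG at each time and treatment, of 2611 to 3500 CPM in TG and 2027 to 2359 CPM in SCG. Sums of 2 parents differed far more. The 6 Gly CCC members summed to a median of 451.9 CPM in TG libraries (335.5 to 759.9) and 73.54 CPM in SCG libraries (35.39 to 221.3), without overlap. That gap follows in large part from the count rule, since 5 of the 6 reached 10 counts in no SCG library. The 5 members shared by several Gln anticodons summed to 610.2 CPM in TG (468.8 to 921.9) and 126.1 CPM in SCG (47.4 to 523.6), where 1 SCG library, saline replicate 1 at 7 d, overlapped TG, and 3 of the 5 reached 10 counts in at most 2 SCG libraries. Arg CCT ran the other way, with 313.8 CPM in TG (205.2 to 664.8) and 455.9 CPM in SCG (237.6 to 772.7).

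**Figure D2:**
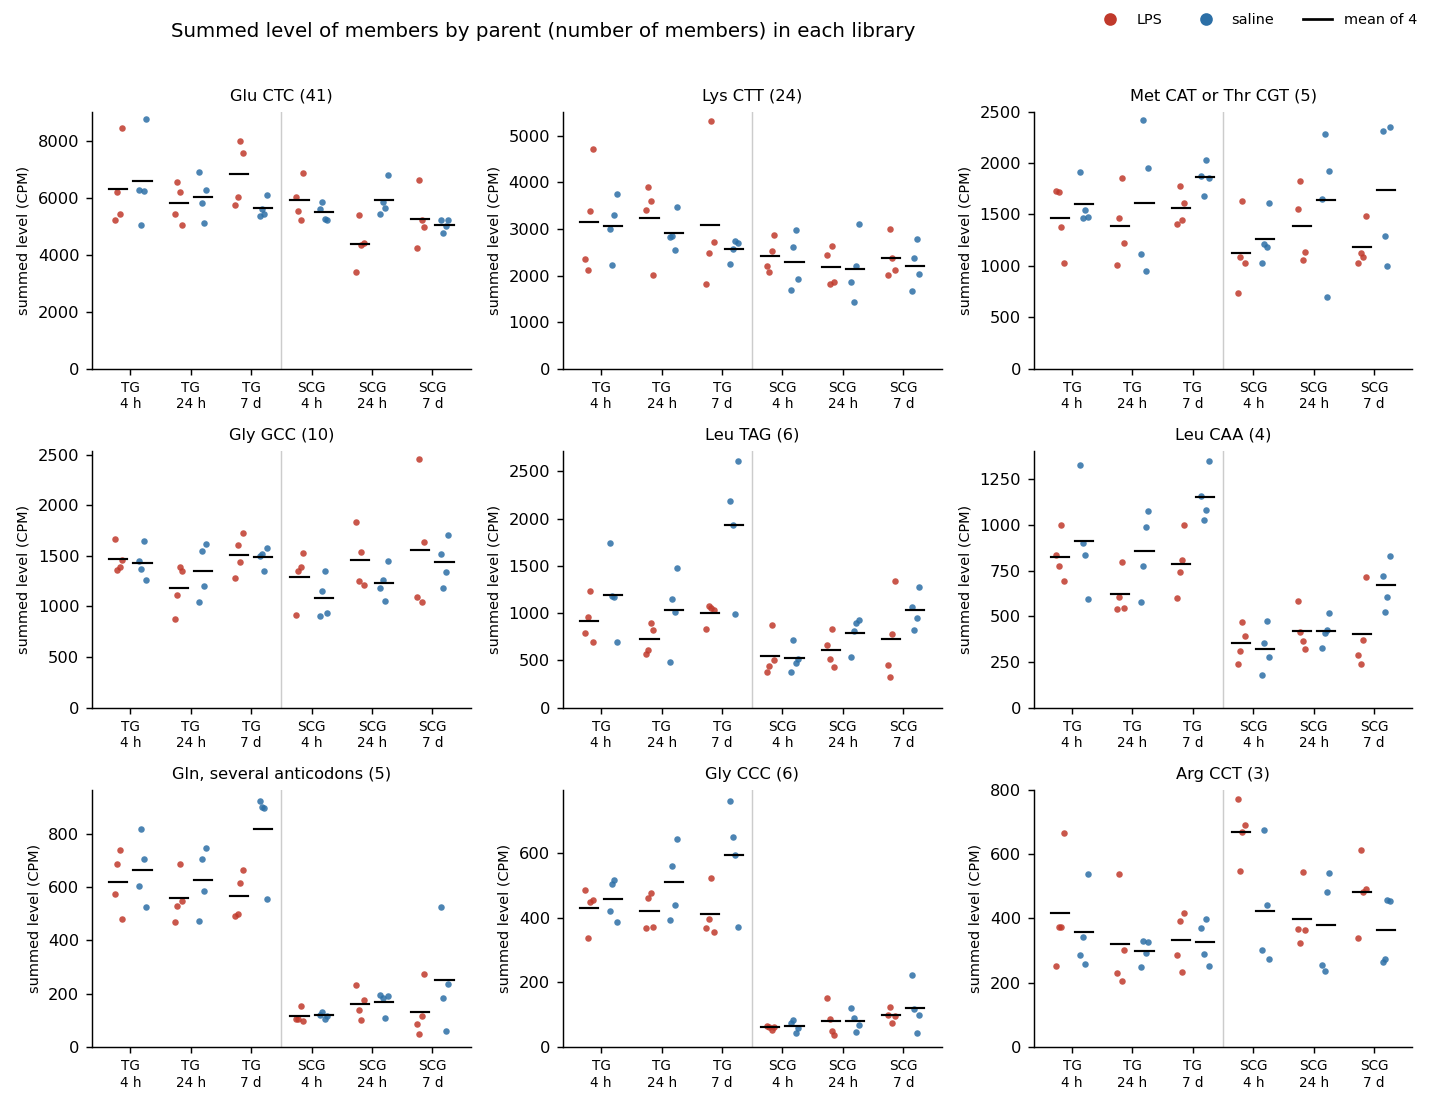
Summed level of the members of 9 parents in each library, in CPM after TMM scaling, by ganglion and time; red points are LPS libraries, blue points saline libraries and black bars the mean of 4. Gly CCC and Gln fragments sit far higher in TG than in SCG, and the Leu TAG panel shows 3 TG saline libraries at 7 d above all others.

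TG was set against SCG within each treatment, on the counts of every tRF, with time and sex as covariates. After saline, 244 of 571 tested tRFs passed edgeR's quasi-likelihood test at a Benjamini-Hochberg adjusted p under 0.05 (42.7%, of which 20.8% were higher and 21.9% lower in TG). Of 145 members tested, 53 passed (36.55%), 42 higher and 11 lower in TG. After LPS, 301 of 599 tRFs passed (50.3%, with 26.7% higher and 23.5% lower), and of 146 members 62 passed (42.47%), 48 higher and 14 lower in TG. The share of members that passed was thus a little under that of all tRFs, with more of them higher in TG. The 2 comparisons used different mice, and 46 members passed in both, which is 86.79% of those that passed after saline and 74.19% of those after LPS. Each of the 46 had the same direction in both, 39 higher and 7 lower in TG. The count rule used the libraries of both comparisons, so this overlap is not an independent repeat. No such share over all tRFs is given to set beside it.

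The count rule shaped these numbers, since a fragment could qualify through 1 ganglion. Some 20 members reached 10 counts in 12 or more TG libraries and in under 6 SCG libraries, and 4 did the reverse. Among the members with 10 counts in at least 6 libraries of each ganglion, 22 were higher and 9 lower of 110 tested after saline, and 26 were higher and 8 lower of 111 after LPS. The balance also moved with the scaling. With library totals in place of TMM, 79 members were higher and 2 lower in TG after saline, where the median log2 difference of all tRFs was 0.68, and 58 were higher and 3 lower after LPS, where it was 0.53. With scaling taken from the miRNA table, 34 were higher and 17 lower after saline, at a median of −0.21 for all tRFs, and 34 were higher and 22 lower after LPS, at −0.38. Without the SCG LPS library that stood apart (replicate 2 at 7 d), 55 members passed after LPS, 44 higher and 11 lower, and without SCG saline replicate 1 at 4 h, 24 h or 7 d, 55, 51 or 51 passed after saline. Other fragment types of the same amino acids moved apart after saline: of 12 fragments typed 3′-half, 8 were higher and 1 lower (median 1.84), while of 103 typed 5′-tRF, 6 were higher and 37 lower (median −0.46), beside a median of 0.18 for the members.

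By start position, members that began at bases 2 to 5 gave 17 higher and 2 lower in TG of 37 after saline and 19 higher and 3 lower of 37 after LPS. Members that began at bases 8 to 21 gave 3 higher and 6 lower of 68, and 6 higher and 7 lower of 69. Members that began at base 29 or later gave 22 higher and 3 lower of 40, and 23 higher and 4 lower of 40. Of all tRFs, 20.8% were higher and 21.9% lower in TG after saline, and 26.7% and 23.5% after LPS. Among the members with 10 counts in at least 6 libraries of each ganglion, those that began at bases 2 to 5 gave 10 higher and 2 lower of 28 after saline and 10 higher and 3 lower of 28 after LPS. Those that began at bases 8 to 21 gave 3 higher and 6 lower of 59, and 6 higher and 4 lower of 60. Those that began at base 29 or later gave 9 higher and 1 lower of 23, and 10 higher and 1 lower of 23. No share over all tRFs under this narrower rule is given.

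Among the Lys CTT fragments near the 5′ end, the direction of the ganglion difference went with the last base. This grouping by 3′ end was chosen after the values were seen and carries no test of its own. Of the Lys CTT members that began at bases 2 to 5, 9 of the 10 that ended at 33 to 35 were higher in TG after saline (median log2 difference 1.61) and 10 of 10 after LPS (1.83). Only 5 of these 10 reached 10 counts in at least 6 SCG libraries, and the other 5 met the count rule mainly through TG, where they are high. The 5 were called higher in TG in both comparisons, with a median of 1.15 after saline and 1.67 after LPS. Of the 7 that ended at 25 to 32, all of which reached it in both ganglia, none was higher in TG, with 1 lower after saline (median −0.36) and 2 lower after LPS (−0.33). For Glu CTC, 6 of 11 that ended at 33 to 36 were higher in TG after saline (median 0.835) and 8 of 11 after LPS (median 1.93), and none was called lower. Differences of the 11 ran from −0.532 to 1.654 after saline and from −0.212 to 2.815 after LPS, so some lay below 0. Of the 8 among these 11 with 10 counts in at least 6 libraries of each ganglion, 4 were higher after saline and 5 after LPS. Beside these counts, 20.8% of all tRFs were called higher and 21.9% lower in TG after saline, and 26.7% and 23.5% after LPS.

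A Lys CTT fragment with the last base at 35, tRF-32-MIF91SS2P4FI3, had 238.4 to 1471 CPM in TG (median 560.2) and 19.35 to 191.6 CPM in SCG (median 53.9) after LPS. After saline it had 385.7 to 753.4 CPM in TG (median 531.7) and 56.94 to 354.9 CPM in SCG (median 174.7). The ganglia did not overlap under either treatment, and the log2 difference was 2.95 ± 0.34 (SE) after LPS and 1.62 ± 0.24 after saline, with edgeR adjusted p of 8.48e-08 and 7.39e-06. Stopping 3 bases earlier, at 32, tRF-30-3JVIJMRPFQ5D had 242.5 to 778.5 CPM in TG (median 372.5) and 180.7 to 585.2 CPM in SCG (median 376.3). Its ganglia overlapped throughout, with a log2 difference of 0.09 and an edgeR adjusted p of 0.737 after saline. The still shorter tRF-24-3JVIJMRPEU, which stops at 26, had 6.686 to 68.9 CPM in TG (median 32.83) and 7.973 to 160 CPM in SCG (median 54.41), and was lower in TG after LPS (−1.05 ± 0.38, edgeR adjusted p 0.023) but not called after saline (−0.42, adjusted p 0.236). That call was lost with library totals (−0.45) and without SCG LPS replicate 2 at 7 d (−0.80).

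**Figure D3:**
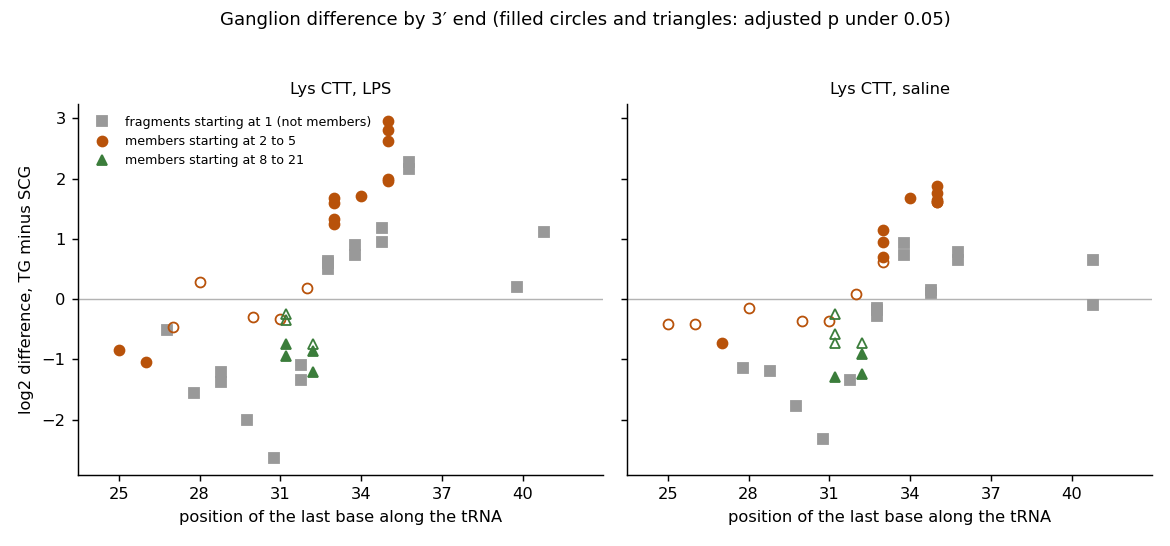
Log2 difference TG minus SCG against the last base of each Lys CTT fragment, after LPS (left) and saline (right); circles are members that begin at bases 2 to 5, triangles members that begin at 8 to 21 (both filled where the adjusted p was under 0.05) and grey squares fragments that begin at base 1, which are not members. Circles lie between −1.05 and 0.29 up to base 32 and above 0 from base 33 on.

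Of the fragments that keep the 5′ end (start at base 1) and are not members, only Lys CTT ends at 31 and 36 are given here. Values at the other ends and for Glu CTC are not given in the text, so no order over all ends is stated. For Lys CTT, tRF-31-PSQP4PW3FJI0B, which ends at 31, differed by −2.64 after LPS and −2.32 after saline, and tRF-36-PSQP4PW3FJI0E7E, which ends at 36, by 2.27 after LPS and 0.65 after saline (edgeR adjusted p 0.42 for the last). Glu CTC members that begin in the D arm spanned a smaller range. After saline the differences ran from −0.82 (tRF-17-73V2Y8K, which ends at 31) to 0.62 (tRF-22-18YKISQI3, which ends at 35), and the 3 that were called, all lower in TG, ended at 31 or 32.

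The share of counts that stopped at 33 to 36, among members that began at bases 2 to 5 and stopped at 31 to 36, needs no scaling between libraries. For Lys CTT it was a median of 70.5% in TG (51.3% to 81.4%, on 181 to 1063 counts per library) and 39.2% in SCG (22% to 66.5%, on 103 to 677 counts). For Glu CTC it was 96.5% in TG (88.1% to 98.9%) and 83.7% in SCG (50.1% to 94.5%). Glu CTC members that began at bases 8 to 21 gave 49.8% in TG and 44.9% in SCG, a smaller gap. These shares too were computed after the values were seen and are given without a test. The count rule enters them, since a member could qualify through TG alone. Of members that began at bases 2 to 5 and ended at 33 to 36, 5 of 10 for Lys CTT reached 10 counts in at least 6 libraries of each ganglion. For Glu CTC 8 of 11 did.

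Within SCG the same share was lower in most LPS libraries. For Lys CTT at 4 h it was 32.3%, 22%, 25.6% and 38.5% after LPS and 66.5%, 43.9%, 34% and 48.7% after saline. At 24 h it was 28.6%, 27.9%, 27.5% and 28.6% after LPS and 36.5%, 51.7%, 39.8% and 53.9% after saline, and at 7 d it was 36.3%, 29%, 44.6% and 57.9% after LPS and 39.8%, 50.9%, 41.7% and 63.0% after saline. LPS and saline libraries were apart at 24 h and overlapped at 4 h and 7 d. The value of 66.5% came from saline replicate 1 at 4 h, the library with the highest SCG muscle and epithelium miRNA sums. For Glu CTC in SCG at 4 h the share was 50.1%, 61.6%, 77.3% and 71.3% after LPS and 84.4%, 83.0%, 81.6% and 85% after saline, without overlap. The lowest Glu CTC value at 24 h was a saline library. At 24 h the Glu CTC share was 80.7% to 93.6% after LPS (median 83.8%) and 61.7% to 93.1% after saline (median 91.9%), and at 7 d 62.3% to 93% after LPS (median 80.5%) and 78.1% to 94.5% after saline (median 86.0%), with overlap at both times. In TG the Lys CTT share was a median of 67.6% after LPS and 71.1% after saline.

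**Figure D4:**
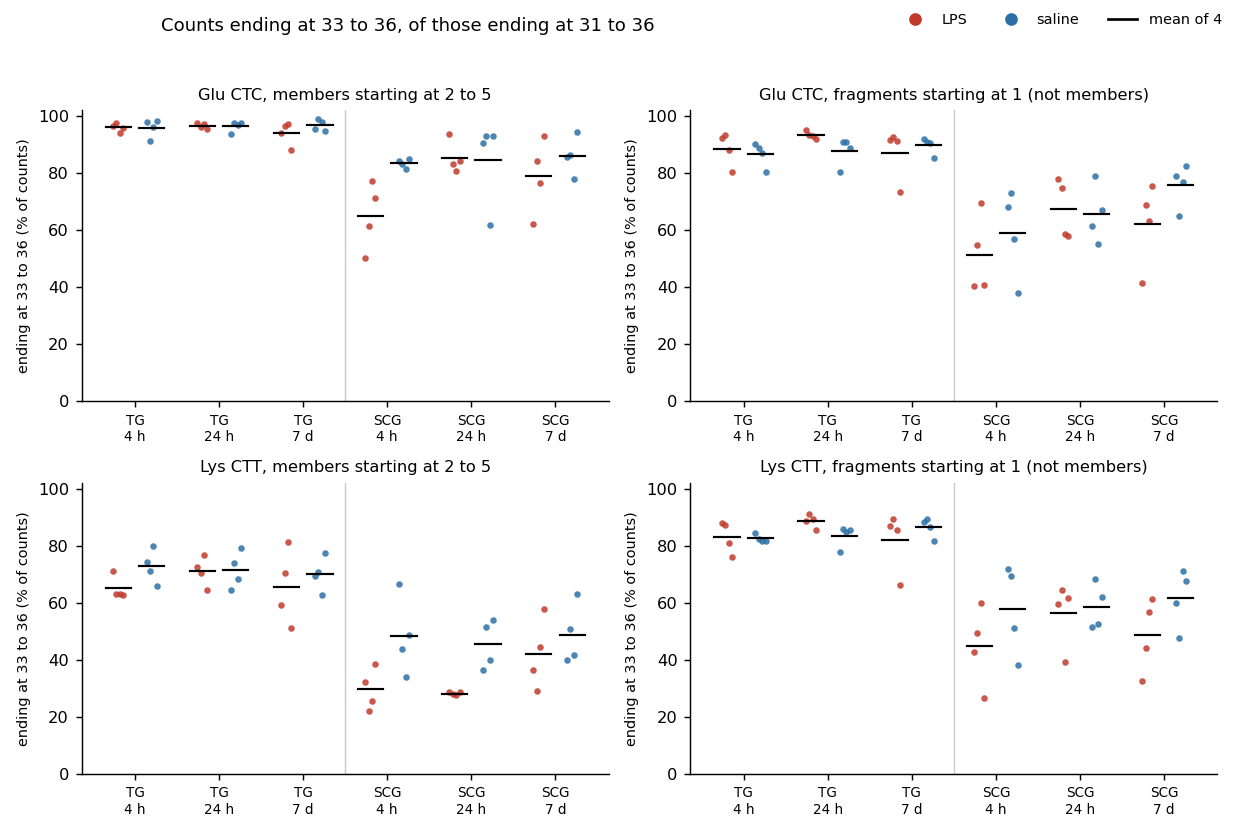
Percent of counts that stop at positions 33 to 36, of those that stop at 31 to 36, in each library, for Glu CTC (top) and Lys CTT (bottom), members that begin at bases 2 to 5 (left) and fragments that begin at base 1 (right); red points are LPS, blue points saline and black bars the mean of 4. TG libraries lie above most SCG libraries in every panel, and the SCG LPS points at 24 h for Lys CTT lie between 27.5% and 28.6%.

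Of the 14 leucine fragments, 8 passed after saline and 9 after LPS, all higher in TG, with medians of 0.77 and 0.75 over the 14, beside 20.8% and 26.7% of all tRFs called higher. The others did not pass, among them tRF-16-NS5J7KE at 0.06 after saline and −0.12 after LPS. Of the 12 leucine members with 10 counts in at least 6 libraries of each ganglion, 6 were higher in TG after saline (median 0.6) and 7 after LPS (0.71). The Leu CAA fragment tRF-18-3L90Q4DZ had 283.2 to 642.6 CPM in TG (median 468) and 137.1 to 321.2 CPM in SCG (median 198.5) after LPS. After saline it had 327 to 899.6 CPM in TG (median 602.6) and 99.65 to 404.2 CPM in SCG (median 249.6). The ganglia overlapped a little under both treatments, and the log2 difference was 1.19 ± 0.18 after LPS and 1.24 ± 0.21 after saline, with edgeR adjusted p of 4.17e-06 and 2.62e-05. The most abundant leucine member, tRF-17-I958M8N of Leu TAG, had 153 to 1074 CPM in TG (median 373.6) and 116.5 to 700 CPM in SCG (median 280.9). It was not called, at 0.33 after LPS and 0.50 after saline (edgeR adjusted p 0.234 and 0.0706). Of the Arg CCT fragments with the same final bases, none was called higher in TG. The main one, tRF-20-40KK5Y93, had 145.8 to 516.7 CPM in TG (median 262.4) and 222.8 to 661.2 CPM in SCG (median 438.5) after LPS, and was lower in TG by edgeR after LPS (−0.53 ± 0.21, adjusted p 0.0354) and after saline (−0.49 ± 0.19, adjusted p 0.0416).

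Several short fragments that begin in the anticodon loop or its 3′ side were nearly confined to TG, and reached the count rule through TG libraries alone, so their difference describes the choice and no p is given. The Gly CCC fragment tRF-20-J9ZH0SR9 had 10 to 78 counts in each TG library and 0 to 9 in each SCG library, 10 of which had none. In CPM that was 81.38 to 139.7 in TG (median 116.2) and 0 to 17.77 in SCG (median 4.064) after LPS, and 73.23 to 300.9 in TG (median 137.2) and 0 to 44.25 in SCG (median 5.969) after saline. All TG libraries lay above all SCG libraries under both treatments. The fragment 1 base longer, tRF-21-J9ZH0SR90, had 329 counts in TG and 12 in SCG. A Ser GCT fragment, tRF-22-UMJYX9X5M, had 402 counts in TG (7 to 31 per library) and 15 in SCG, where 18 of 24 libraries had none. The SCG library with the most of it, saline replicate 1 at 24 h with 32.39 CPM, was the one with the highest sensory neuron miRNA sum, and the part of that tissue mix in the values was not tested. Single members from isoleucine TAT (tRF-23-U4307W5NDL, 341 counts in TG and 45 in SCG) and threonine CGT (tRF-23-BSDEL87SR, 272 and 64 counts) also met the rule through TG alone.

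Of the 5 Gln members shared by several anticodons, 3 met the count rule almost through TG alone, so a count over all 5 describes that choice. The other 2 reached 10 counts in 9 and 10 SCG libraries and in all 24 TG libraries, and both were higher in TG in both comparisons. The more abundant of them, tRF-23-DRFU8U767, had 111.5 to 287.6 CPM in TG (median 153.7) and 9.874 to 160.6 CPM in SCG (median 35.13) after LPS. After saline it had 123.7 to 369.7 CPM in TG (median 193.2) and 6.693 to 147.5 CPM in SCG (median 33.96). In either treatment 11 of 12 SCG libraries lay below all TG libraries, and the log2 difference was 1.92 ± 0.34 after LPS and 2.07 ± 0.29 after saline (edgeR adjusted p 3.35e-05 and 2.68e-06). Gln CTG members, by contrast, gave no call in either comparison.

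A smaller group was lower in TG. The second Ser GCT fragment, tRF-16-NY2V7KE, had 0 to 14.97 CPM in TG (median 4.745) and 0 to 116.4 CPM in SCG (median 47) after LPS, and 0 to 35.16 CPM in TG (median 13.48) and 3.572 to 147.9 CPM in SCG (median 48.95) after saline. It met the rule almost through SCG alone (11 of its 12 libraries), and its raw counts were 48 in TG and 252 in SCG. The Ser GCT fragments thus lay on opposite sides, although they begin only 12 bases apart. Of the 7 Lys CTT fragments that begin at bases 8 to 21, 3 were called lower in TG after saline and 4 after LPS, and none was called higher. Of all tRFs, 21.9% and 23.5% were called lower. Of the 5 Lys CTT fragments among these with 10 counts in at least 6 libraries of each ganglion, 3 were lower in either comparison. One of the 7, tRF-18-1SS2P4DX, had 8.261 to 110.8 CPM in TG (median 44.26) and 60.77 to 219.2 CPM in SCG (median 84.07) after LPS, and 28.98 to 77.38 CPM in TG (median 39.92) and 32.15 to 259.4 CPM in SCG (median 104.9) after saline. Its libraries overlapped under both treatments, at a log2 difference of −0.94 ± 0.31 after LPS and −1.29 ± 0.29 after saline (edgeR adjusted p 0.0134 and 0.000616). Another, tRF-17-W3FJIK1, differed by −1.21 ± 0.21 after LPS and −0.91 ± 0.31 after saline (edgeR adjusted p 3.27e-05 and 0.0196). With library totals in place of TMM the first was not called after saline (−0.61) nor the second after LPS (−0.67).

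The single member annotated to a suppressor TTA tRNA, tRF-23-Y2PPEVNK0Q, has the same letters as mature mmu-miR-7689-3p in RefSeq (mouse, GRCm38.p6), so its reads cannot be told apart from that miRNA. It held 161 tRF counts in TG and 374 in SCG, where the miRNA table gave 228 and 562 counts. The 2 tables agreed exactly in 3 of 24 TG libraries and in none of 24 SCG libraries. It was lower in TG by −1.75 ± 0.43 after LPS and −1.05 ± 0.32 after saline (edgeR adjusted p 0.00142 and 0.00775). The saline call was lost with library totals (−0.43) and with no filter (−0.92).

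The 4 most abundant members were not called between the ganglia in either treatment. The first, tRF-16-MBQ4NKD of Met CAT or Thr CGT, had 551.2 to 1156 CPM in TG (median 867.2) and 435.9 to 1064 CPM in SCG (median 692.7) after LPS, and 567.1 to 1530 CPM in TG (median 1096) and 425.1 to 1351 CPM in SCG (median 894.7) after saline. Its log2 difference was 0.33 after LPS and 0.09 after saline (edgeR adjusted p 0.149 and 0.773). The Gly GCC fragment tRF-20-VBY9PYKH had 438.9 to 960 CPM in TG (median 667.8) and 477.4 to 1523 CPM in SCG (median 650.2). The Glu CTC fragments tRF-27-9N1EWJQ72SJ and tRF-16-9N1EWJ0, which begin in the D arm, differed by 0.17 and −0.25 after saline (edgeR adjusted p 0.502 and 0.299). The fifth, tRF-17-9N1EWJM of Glu CTC, had 237.6 to 814.4 CPM in TG (median 361.4) and 371.5 to 859.1 CPM in SCG (median 497.3) after LPS, and 285.6 to 495 CPM in TG (median 416.1) and 282.2 to 1050 CPM in SCG (median 487.6) after saline. Its groups overlapped, and it was called lower in TG, by −0.51 ± 0.19 after LPS and −0.49 ± 0.19 after saline (edgeR adjusted p 0.03 and 0.033). His, Val and Pro members gave no call in either comparison. Their highest members had medians of 270.5 CPM in TG and 203.9 CPM in SCG for tRF-29-34HWH3RXSIHM (His GTG), 84.36 and 91.65 CPM for tRF-21-MNH5SYNXD (Val TAC), and 63.99 and 77.98 CPM for tRF-22-ZKXU53K8N (Pro TGG).

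The members whose levels over the 48 libraries were most like those of tRF-16-MBQ4NKD were tRF-18-MBQ4NKDJ (Spearman's rho 0.84), tRF-24-MBQ4NKKQ0V (0.722) and tRF-17-MBQ4NKJ (0.632). All 3 begin with its 16 bases, and all levels share the library's scaling. The most variable member was tRF-21-O9XEKJ5R0, a Gln CTG fragment named here after its values were seen. The median SD of its log2 level within a group was 2.87, beside 1.31 for the next member. In SCG at 24 h it had 111.6, 0, 238.4 and 4.423 CPM after LPS and 985.4, 5.525, 15.55 and 0 CPM after saline. In TG at 24 h it had 514.3, 4.164, 253.8 and 161.1 CPM after LPS and 41.25, 0, 49.31 and 50.71 CPM after saline. At 24 h in SCG, replicates of the saline group thus ran from 0 to the highest level it reached in any library.

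LPS was compared with saline at each time in either ganglion, to ask whether systemic inflammation changed these fragments. No member passed in any of the 6 comparisons by edgeR's quasi-likelihood test with Benjamini-Hochberg adjustment, of 126 tested in SCG and 141 in TG, and the background over all tRFs was 0 of 544 (0%) in SCG and 0 of 559 (0%) in TG at each time. At an unadjusted p under 0.05 there were 6, 2 and 12 members in SCG and 1, 6 and 18 in TG at 4 h, 24 h and 7 d, beside 39, 26 and 27 of all tRFs in SCG and 21, 45 and 38 in TG. Median log2 differences of the members were −0.09, −0.07 and −0.11 in SCG and −0.03, −0.22 and 0.01 in TG. In counts simulated on these libraries, the test recovered 45% of 4-fold and 10% of 2-fold changes in SCG at 7 d, and 82% and 30% in TG at 7 d, so 2-fold changes would mostly have been missed. In each simulation 100 tRFs were changed 2-fold and 100 were changed 4-fold, of 544 in SCG and 559 in TG. Adjustment is stricter where fewer tRFs change, so these percentages overstate the recovery of sparse changes.

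In SCG the smallest edgeR adjusted p of a member was 0.578 at 4 h, 0.941 at 24 h and 0.831 at 7 d. At 24 h the Lys CTT fragment tRF-32-MIF91SS2P4FI3 had 47.8, 25.3, 87.6 and 39.8 CPM after LPS and 83.3, 138, 77.8 and 183 CPM after saline (−1.25 ± 0.60, adjusted p 0.941), with 1 LPS library among the saline ones. Of the others with the smallest p, tRF-33-3JVIJMRPFQRD03 of Lys CTT differed by −1.91 ± 0.89 and tRF-26-9NF5W8E7OMD of Gln CTG by 1.14 ± 0.61 at 24 h. At 7 d, tRF-24-DRFU8U76ED of Gln differed by −2.48 ± 0.84 and tRF-16-JMRPFQD of Lys TTT by 1.84 ± 0.64.

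In TG at 7 d the smallest p belonged to leucine fragments. All 14 lay below saline after LPS (log2 −2.13 to −0.37, median −1.09), and 11 had an unadjusted p under 0.05, but none passed the adjustment. Many of the 14 are length variants of one another, so they are not 14 separate observations. The count over all tRFs at this unadjusted threshold is given above. tRF-18-W9RKM80E had 22.6, 33.8, 60.2 and 38.8 CPM after LPS and 127, 144, 72.1 and 323 CPM after saline, which did not overlap. Its log2 difference was −2.13 ± 0.48 with an edgeR adjusted p of 0.0891. tRF-17-W9RKM8N, 1 base shorter, had 61.2, 101, 86.9 and 105 CPM after LPS and 231, 239, 139 and 330 CPM after saline (−1.43 ± 0.38, adjusted p 0.154). tRF-17-I958M8N had 290, 350, 374 and 438 CPM after LPS and 968, 724, 388 and 1074 CPM after saline (adjusted p 0.284), and saline replicate 3 lay among the LPS libraries. tRF-17-W96KM8N, which carries the substitution G8A against tRF-17-W9RKM8N (positions from 1 at the 5′ end of the fragment), differed by −1.47 ± 0.44 (adjusted p 0.284). After saline, TG medians of tRF-18-W9RKM80E at 4 h, 24 h and 7 d were 74.9, 65.64 and 135.7 CPM, with 36.27 CPM after LPS at 7 d. For tRF-17-I958M8N they were 382.2, 431.1 and 846.2 CPM, with 362.4 CPM after LPS. For tRF-17-W96KM8N they were 86.08, 72.42 and 194.9 CPM, with 89.37 CPM after LPS. The 7 d saline group was thus the high one among saline groups, and the reason was not tested.

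Calls of leucine fragments in TG at 7 d depended on 1 library and on the test. Without saline replicate 3, 3 members passed, namely tRF-18-W9RKM80E (−2.42, edgeR adjusted p 0.0136), tRF-17-W9RKM8N (−1.65, 0.0397) and tRF-17-I958M8N (−1.43, 0.0397). With all libraries, tRF-18-W9RKM80E passed with miRNA scaling (adjusted p 0.0424), with no filter (0.0135) and by DESeq2 (0.0128), and tRF-17-W9RKM8N by DESeq2 (0.0495). The summed neuron miRNAs (3 of 3 found, none at 0 in any library) moved with the leucine fragments. They were 28950, 29430, 30250 and 28020 CPM after LPS and 54570, 54380, 29350 and 50720 CPM after saline. The median over all TG libraries was 29390 CPM, so the high saline sums were the unusual ones. The saline library with the least leucine fragments also had the lowest neuron sum of its group. Sensory neuron miRNAs ran the other way, at 71790 to 82650 CPM after LPS and 57040 to 73840 CPM after saline. The part of either in the leucine values was not tested. In SCG at 7 d all 13 leucine members tested also lay below saline (median −0.90, 3 with an unadjusted p under 0.05, smallest adjusted p 0.831). That LPS group includes replicate 2, the library that stood apart in marker miRNAs. It had 1.975 CPM of tRF-17-W96KM8N, beside 35.22, 47.22 and 132.2 CPM in the rest of the group.

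**Figure D5:**
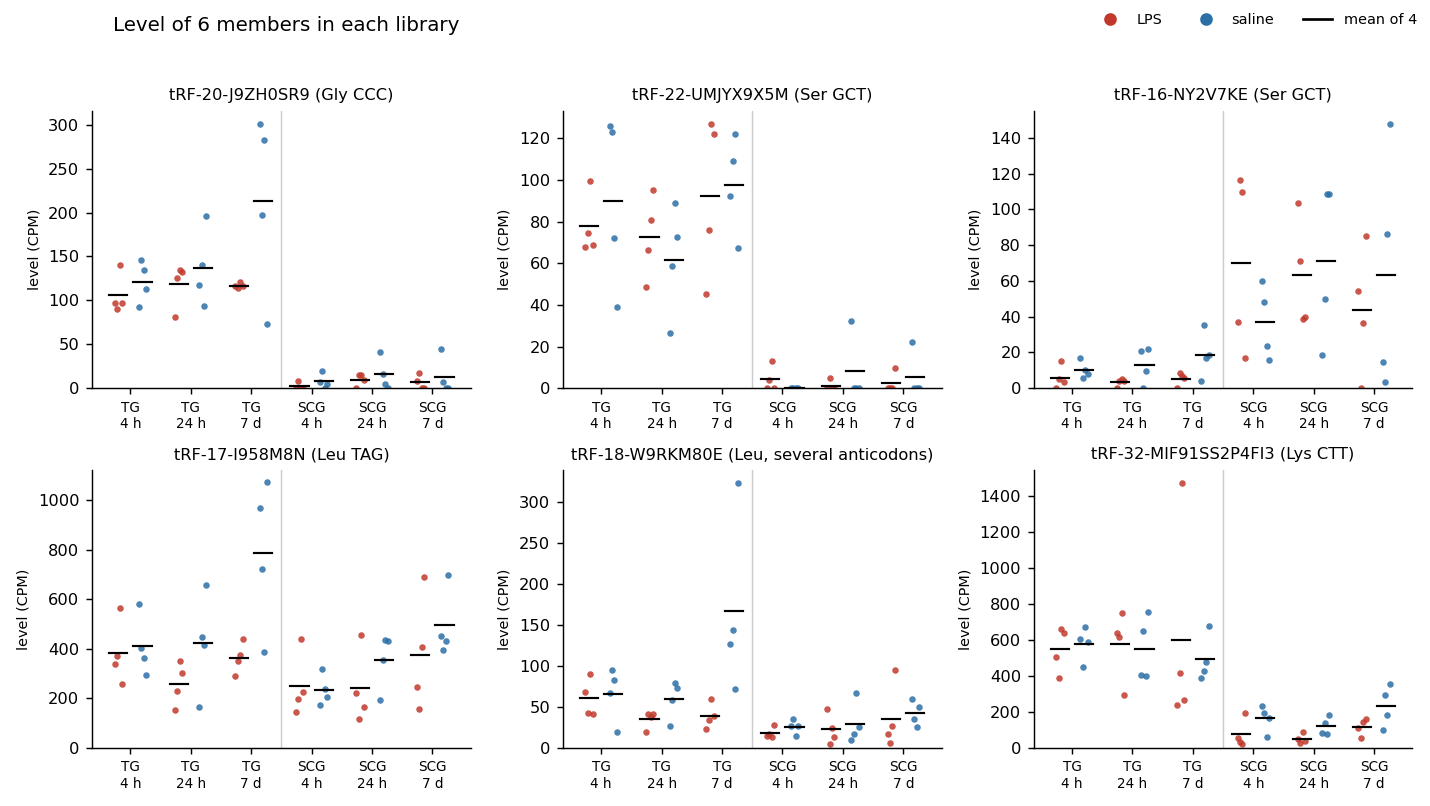
Level of 6 members in each library, in CPM after TMM scaling, by ganglion and time; red points are LPS libraries, blue points saline libraries and black bars the mean of 4. The Gly CCC fragment and one Ser GCT fragment are nearly absent from SCG, the other Ser GCT fragment is higher in SCG, and for both leucine fragments at least 3 of the TG saline libraries at 7 d lie above the 4 LPS libraries.

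At 4 h and 24 h in TG the members with the smallest p came from Glu CTC, Met CAT, Lys TTT, Leu TAG and the suppressor TTA annotation. tRF-20-9N1EWJQ7 of Glu CTC had 29.1, 5.33, 9.98 and 44.8 CPM after LPS and 42, 67.2, 82.5 and 58.7 CPM after saline at 4 h (−1.43 ± 0.64), with 1 LPS library above the lowest saline library. tRF-23-MBQ4NKKQR of Met CAT had 32.6, 12.5, 43.2 and 28.9 CPM after LPS and 41.3, 95, 29.6 and 109 CPM after saline at 24 h (−1.2 ± 0.48). The smallest edgeR adjusted p among members was 0.934 at 4 h and 0.507 at 24 h. The remaining ones differed by −0.72 ± 0.36 (tRF-35-9EYK46S9Y81H93) and −0.75 ± 0.39 (tRF-22-WURMJKYON) at 4 h, and by −1.23 ± 0.50 (tRF-22-9N1EWJQ72) and −1.27 ± 0.54 (tRF-23-Y2PPEVNK0Q) at 24 h.

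The difference between the LPS effects in TG and in SCG was tested in 1 fit of all 48 libraries. None of 147 members, and none of 729 tRFs (0%), passed at 4 h, 24 h or 7 d by edgeR's quasi-likelihood test, and 3, 4 and 7 members had an unadjusted p under 0.05. The smallest edgeR adjusted p of a member was 0.981, 0.858 and 0.964. Among the members with the smallest p at 7 d were tRF-16-JMRPFQD, with a log2 LPS effect in TG minus SCG of −2.12 ± 0.80, and tRF-21-40KK5Y93E of Arg CCT (−1.78 ± 0.76). At 24 h tRF-31-3JVIJMRPFQ5DE of Lys CTT (1.33 ± 0.59) was among them, and at 4 h tRF-19-JMRPFQFX of Lys TTT (−1.57 ± 0.78).

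Sex and time were compared within a ganglion. No member differed between female and male libraries by edgeR's quasi-likelihood test in SCG (0 of 544 tRFs, 0%) or TG (0 of 559, 0%), with 13 and 7 members at an unadjusted p under 0.05 and smallest adjusted p of 0.134 and 0.348. The member behind the first was tRF-23-Y2PPEVNK0Q, with a log2 difference, female minus male, of −1.73 ± 0.41 in SCG. Among saline libraries, no member differed over the 3 times in SCG (0 of 544 tRFs, 0%) or in TG, where 1 tRF outside the set did (1 of 559, 0.179%). Unadjusted, 4 members in SCG and 10 in TG had a p under 0.05, with smallest adjusted p of 0.887 and 0.217.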

How the data were processed

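The authors deposited whole-number counts per miRNA and per tRNA fragment for 48 libraries, with MINTbase names, sequences, types and human tRNA locations. Per the submitters' processing notes, FastQC 0.11.9 and the GRCm39 build were used; no source used here names the aligner or counter.

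Counts were scaled by TMM and tested with edgeR 4.0.16 (R 4.3.3, limma 3.58.1), robust quasi-likelihood fit, over all tRFs that passed edgeR's filter by group at a minimum count of 10, with Benjamini-Hochberg adjustment over all of them (adjusted p under 0.05). TG and SCG were fitted apart for LPS, time and sex (6 groups plus sex), together for the difference between their LPS effects, and within a treatment for TG against SCG. Within a ganglion each library is 1 mouse, so p-values there measure the spread between mice. The filter left out 21 members in SCG and 6 in TG. The TG against SCG counts treat the libraries as independent, although a mouse may have given both.

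Named members were the 10 with the highest mean CPM, the most abundant of each amino acid, those called or with the 3 smallest p in each LPS comparison, the 5 largest differences each way between ganglia, up to 3 called by sex or time, those at the limit of the count rule, and the 3 most like the most abundant; the text gives the rest by counts. Some Glu CTC members that begin near the 5′ end, 1 of the 10 with the highest mean CPM among them, are not reported here by name. Tallies over members seen in both ganglia were added after the values were seen. The members, lists and tests were chosen with earlier results of these data known. Library totals, miRNA scaling, RLE factors, DESeq2 1.42.0, no filter, no sex term, other count rules and leaving out each library were tried as alternatives. Simulated counts tested the scripts.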

Additional observations from a re-analysis of the deposited data

Results flagged for a closer look

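Within each group of 4 libraries, Dixon's criterion at the 95% level picked out 13 values in 216 tests, and chance alone gives about 1 in 20. The sum of all members was 18750 CPM in SCG saline replicate 4 at 24 h, beside 14620 to 14870 in the rest of the group. The 9 Gln members summed to 671.3 CPM in TG saline replicate 4 at 7 d (rest 998.4 to 1053) and to 1319 CPM in SCG saline replicate 1 at 24 h (rest 181.4 to 337). Of the 1319 CPM, tRF-21-O9XEKJ5R0 alone gave 985.4 CPM, and that library also had the highest SCG sensory neuron miRNA sum. The same fragment had 495.3 and 603.8 CPM in SCG saline replicates 1 and 2 at 4 h, where that sum was 2919 and 1889 CPM. The part of tissue mix in these values was not tested. The 6 Met members summed to 588.6 CPM in TG LPS replicate 3 at 24 h (rest 366.4 to 400.6) and to 483.6 CPM in SCG LPS replicate 3 at 4 h (rest 353.3 to 361.6).

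Among single members, tRF-16-MBQ4NKD had 1169 CPM in TG saline replicate 1 at 4 h (rest 851.3 to 882.1), and tRF-20-VBY9PYKH 884.9 CPM in TG saline replicate 4 at 7 d (rest 605.6 to 643.4). In TG saline replicate 4 at 4 h, tRF-27-9N1EWJQ72SJ had 1134 CPM (rest 515.9 to 605.4). TG LPS replicate 4 at 7 d stood out in both tRF-16-9N1EWJ0, at 853.2 CPM (rest 393.1 to 421.2), and tRF-17-9N1EWJM, at 814.4 CPM (rest 357.6 to 401), which differ by 1 base in length. tRF-16-9N1EWJ0 also had 983.7 CPM in SCG saline replicate 4 at 24 h (rest 613.3 to 653.1). Low values were 180.7 CPM of tRF-30-3JVIJMRPFQ5D in SCG saline replicate 1 at 4 h (rest 367.1 to 393.8), the library with the highest muscle miRNA sum, and 464.1 CPM of tRF-18-3L90Q4DZ in TG saline replicate 2 at 7 d (rest 654.3 to 689.6).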

How the results depend on the processing

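No direction reversed. Members called in TG against SCG after saline were 81 with library totals and 34 of those at 10 counts in 24 libraries, and after LPS 40 with no filter and 35 of those at 10 counts in 24 libraries. LPS against saline in TG at 7 d gave 1 member with miRNA scaling, 1 with no filter, 2 with DESeq2 and 0 to 3 when 1 library was left out, the 3 without saline replicate 3. Without a filter, 1 member was called for the difference between LPS effects at 24 h (tRF-21-O9XEKJ5R0), 1 for time among saline TG libraries and 1 for sex in SCG, and DESeq2 gave 2 for sex in SCG. Time in TG gave 0 to 1 with 1 library left out (1 without saline replicate 3 at 7 d) and 1 with the rule at 5 counts. The causes were not tested. In all, 4 runs, each without 1 library, were added after seeing the data and gave 51, 51 and 55 members after saline without SCG saline replicate 1 at 24 h, 7 d or 4 h, and 56 after LPS without TG LPS replicate 3 at 7 d. No paired analysis was possible because replicate numbers follow accession order and the labels do not tie TG to SCG libraries of a mouse. Depth limits single members: 62 reached 10 counts in only 12 to 23 libraries.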
